A study of Mus musculus with 6 samples.

Results

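The antiviral genes that type I interferon switches on were followed across colonic mucosa arrays of C57BL/6 mice, 3 of them labelled wild type and 3 labelled p38a knockout, lettered A, B and C in each group. The genes were a list of 40 interferon-stimulated genes matched by platform symbol, with the brightest probe set standing for each gene. Of the 40, 37 had a probe set named for them alone, and all 37 lay above the signal filter and were tested among 12437 genes. Isg15, Ifi44 and Oas1g had no such probe set and are not analysed here. The mice were untreated, and p38a, a kinase that cells activate under stress, is the product of Mapk14. In which cells and by which deletion the kinase was removed is not given in the sources used here, nor is the age of the mice or whether each array came from a separate animal. The p-values therefore speak only of the spread among these arrays, possibly technical. The question of the design is how transcripts of the mucosa depend on p38a.

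Type I interferons are secreted after cells sense viral or other foreign nucleic acid, and they bind a receptor that activates the kinases JAK1 and TYK2. Factors that they phosphorylate, STAT2 among them, join IRF9 and bind interferon-stimulated response elements in front of a shared set of genes. The products sense RNA, degrade it, block translation, trap particles or restrain the response itself. The gut epithelium also answers to type III interferon, which uses another receptor and the same factors.

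To show the DNA that this response acts on, promoters from the RefSeq table of GRCm38.p6 were searched on both strands for the core of the response element, which is GAAA, any 2 bases and another GAAA, and for TTCNNNGAA, a palindrome that dimers of the STAT family bind. Each window ran over 300 bases, 250 before and 50 after the annotated start, and 30 of the 40 genes had at least 1 window. Of these, 14 (46.7%) held the response element core, against 3.99% of all 27025 genes in the table, and 7 (23.3%) held TTCNNNGAA, against 9.55%. A match is a stretch of letters and not a measured binding site, and these genes were listed because interferon induces them. The windows below belong to the 5 genes with such a core and the smallest p in the array comparison and to Irf1, whose window held TTCNNNGAA only. Capitals mark the matches, which read TTTC, any 2 bases and TTTC where the core lies on the other strand.
Ifit1, chr19:34640639-34640938, plus strand: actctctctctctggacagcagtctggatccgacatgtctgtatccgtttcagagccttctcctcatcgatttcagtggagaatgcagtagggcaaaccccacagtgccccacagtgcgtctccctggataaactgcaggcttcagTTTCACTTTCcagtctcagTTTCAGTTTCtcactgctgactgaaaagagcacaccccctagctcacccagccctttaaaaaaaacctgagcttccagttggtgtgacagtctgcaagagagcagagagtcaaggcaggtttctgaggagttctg
Oas3, chr5:120777610-120777909, minus strand: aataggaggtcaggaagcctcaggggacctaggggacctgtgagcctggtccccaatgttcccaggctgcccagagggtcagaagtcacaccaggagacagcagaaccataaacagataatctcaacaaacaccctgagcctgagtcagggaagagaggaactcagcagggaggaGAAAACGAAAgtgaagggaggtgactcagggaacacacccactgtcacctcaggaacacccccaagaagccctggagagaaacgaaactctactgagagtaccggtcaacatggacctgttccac
Oas1a, chr5:120907476-120907775, minus strand: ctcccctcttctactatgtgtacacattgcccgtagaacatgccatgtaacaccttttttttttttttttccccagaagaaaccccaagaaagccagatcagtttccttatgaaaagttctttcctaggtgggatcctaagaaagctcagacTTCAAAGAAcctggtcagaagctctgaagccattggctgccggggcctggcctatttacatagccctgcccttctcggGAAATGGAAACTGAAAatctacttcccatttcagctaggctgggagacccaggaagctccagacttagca
Ifih1, chr2:62646206-62646505, minus strand: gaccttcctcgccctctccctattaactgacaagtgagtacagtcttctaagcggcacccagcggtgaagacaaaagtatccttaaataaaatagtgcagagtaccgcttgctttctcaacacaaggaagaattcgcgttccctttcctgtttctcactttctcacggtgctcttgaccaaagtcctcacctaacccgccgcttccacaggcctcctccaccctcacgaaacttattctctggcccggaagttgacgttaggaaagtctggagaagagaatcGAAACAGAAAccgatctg
Rsad2, chr12:26456403-26456702, minus strand: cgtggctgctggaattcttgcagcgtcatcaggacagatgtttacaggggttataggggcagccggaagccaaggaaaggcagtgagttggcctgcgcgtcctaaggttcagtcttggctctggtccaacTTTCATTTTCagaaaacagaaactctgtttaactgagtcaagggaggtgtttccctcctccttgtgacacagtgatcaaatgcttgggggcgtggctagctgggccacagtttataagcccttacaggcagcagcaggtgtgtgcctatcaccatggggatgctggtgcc
Irf1, chr11:53769764-53770063, plus strand: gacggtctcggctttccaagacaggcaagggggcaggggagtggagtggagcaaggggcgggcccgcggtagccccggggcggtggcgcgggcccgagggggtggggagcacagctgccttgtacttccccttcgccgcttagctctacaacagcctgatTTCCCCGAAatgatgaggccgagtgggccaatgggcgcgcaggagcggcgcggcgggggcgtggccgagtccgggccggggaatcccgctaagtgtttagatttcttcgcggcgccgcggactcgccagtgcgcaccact
Ifit1 held 2 response element cores, beginning 104 and 85 bases before the start. In Oas1a the 2 cores overlapped, beginning 20 and 14 bases before it, and a TTCNNNGAA match lay 98 bases before it. The single core began 75 bases before the start in Oas3, 120 before it in Rsad2 and 32 after it in Ifih1. The Irf1 match began 90 bases before the start. Of the tested genes in the table, the 12 with a core had a median log2 difference of -0.39 between the groups and the 15 without one a median of -0.30.

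Levels are given as log2(signal + 16) on quantile-normalized arrays, and differences are the mean of the arrays labelled knockout minus the mean of wild type, so fold changes understate the change of dim genes. Most of the antiviral genes read lower in the arrays labelled knockout, but the groups overlapped for each of them. Of the 37 genes 33 were lower and 4 higher, with a median difference of -0.38, beside 46.8% lower and a median of 0.02 over all genes tested. limma with Benjamini-Hochberg adjustment over all genes called 0 of the 37 at an adjusted p of 0.05, where it called 0% of all genes (adjusted p from 0.902 to 0.988 among the 37). At an unadjusted p under 0.05 stood 6 of the 37, all lower, against 2.2% of all genes on that side and 1.74% on the other. A difference of -1 or below was reached by 2 genes, Oas2 and Ifit1, against 0.458% of all genes. Complete separation of the groups was seen for 0 of the 37 in either direction, while 4.38% of all genes were separated lower and 4.68% higher.

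**Figure D1:**
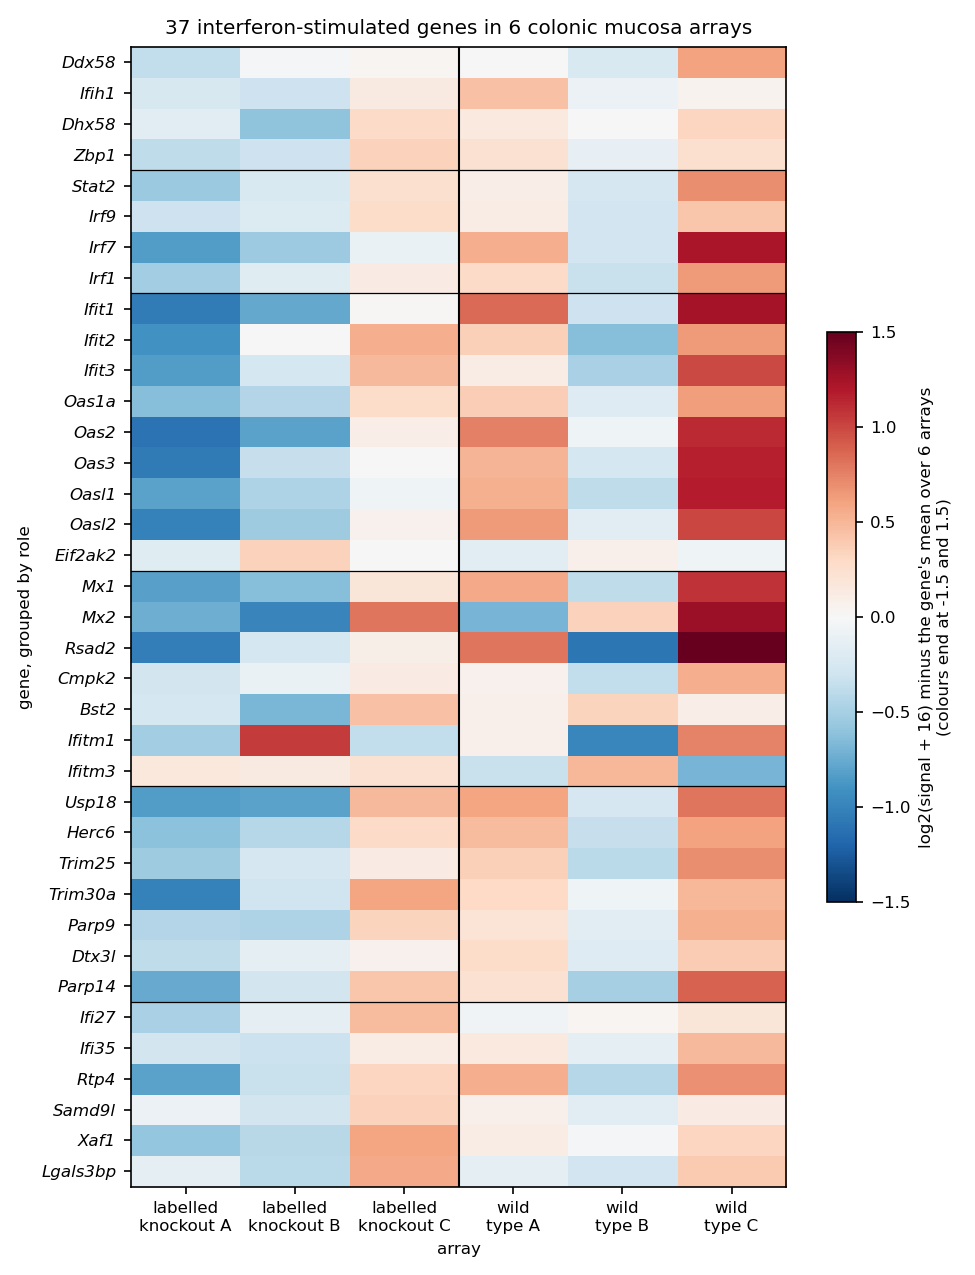
Heat map of the 37 genes (rows, grouped by role) in the 6 arrays (columns), coloured by log2(signal + 16) minus the gene's mean over the 6 arrays. Wild type C is the highest array for 26 genes and the array labelled knockout A the lowest for 25. Over all genes tested, wild type C is the highest array for 30.3% and the lowest for 32.8%, so its extremes are not confined to the list. Wild type B resembles the arrays labelled knockout more than wild type A and C.

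The genes varied together from array to array within each group. Averaged over the 37 genes and relative to the mean of the 6 arrays, the level was -0.58 in array A labelled knockout, -0.32 in B and 0.24 in C. Wild type A stood at 0.26, wild type B at -0.23 and wild type C at 0.63. The array labelled knockout C was thus at the level of wild type A, and wild type B between the arrays labelled knockout B and C. All 37 genes read higher in the array labelled knockout C than in A (median 0.77), where 44.7% of all genes did. In wild type, 34 of the 37 read higher in C than in B (median 0.94) and 32 in A than in B (median 0.53), against 48% and 44.2% of all genes. The median SD of a listed gene was 0.49 among the wild-type arrays and 0.48 among those labelled knockout, where over all genes it was 0.29 and 0.19. For 20 of the 37 the difference between groups was smaller than the wild-type SD. It exceeded both SDs for 11.

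On the deposited scale, where the arrays labelled knockout are brighter as a whole, the order of the arrays was different. The array labelled knockout C was the highest for 26 of the 37 genes and wild type C for 8, while wild type C was also the lowest for 8, Ifih1 and Samd9l among them. Parp9 was deposited at signals of 1040, 858 and 1582 in arrays A, B and C labelled knockout and at 1005, 1052 and 1024 in wild type. Within the groups, 36 of the 37 genes read higher in the array labelled knockout C than in A, and 22 higher in wild type C than in B. In Ifit1 and Oas2, which had the largest differences, wild type C was the highest array. Ifit1 was deposited at signals of 564, 578 and 1058 in the arrays labelled knockout and at 1344, 793 and 1432 in wild type. Oas2 stood at 111, 133 and 276 and at 303, 223 and 321 in the same order. In both genes the array labelled knockout C exceeded wild type B. Over the 37 genes the highest deposited signal exceeded the lowest by 1.45-fold (Irf1) to 14.9-fold (the dim Mx2), with a median of 2.16-fold. On normalized levels the range was 1.45-fold (Eif2ak2) to 6.00-fold (Rsad2), with a median of 2.36-fold.

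The direction turned for 17 of the 37 genes when wild type B alone served as control. Wild type A and C both lay above wild type B for 32 of the 37, against 34.6% of all genes. For those genes this choice of control raised the difference by construction. Against wild type A and C the mean of the arrays labelled knockout was lower for 35 of the 37 genes, with a median of -0.60, and against wild type B it was lower for 20, with a median of -0.02. For 33 of the 37, wild type B lay within the range of the arrays labelled knockout, which 51.5% of all genes did. Over all genes the median difference against wild type B was -0.02 too. With a single control array the spread came from the arrays labelled knockout alone, so that fit cannot show a loss of signal. Without wild type B the median was -0.60 and 17 genes had an unadjusted p under 0.05, and 17.2% of all genes did in that setting. Without the array labelled knockout C the median was -0.64 and 15 genes had such a p, against 3.01% of all genes. The 6 genes of the full comparison fell to 0 without the array labelled knockout A (median -0.23), to 1 (Oas2) without B, to 1 (Oas2) without wild type A and to 2 (Ifit1 and Oas2) without wild type C (median -0.19), where between 1.83% and 3.79% of all genes had such a p. Wild type B also stood apart in genes of the exocrine pancreas. The protease gene Prss2 read 7.67 there and 4.97 to 5.23 in the other arrays, and Cela2a, Cpa1 and Ctrb1, which lay below the signal filter, read 7.71, 6.42 and 6.84 against at most 5.01, 4.34 and 4.97. Of the 5 pancreas genes with a probe set, Cela1, at 10.81 against 10.44 to 11.16, was not set apart, and the part of this tissue in the values of wild type B was not tested.

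**Figure D2:**
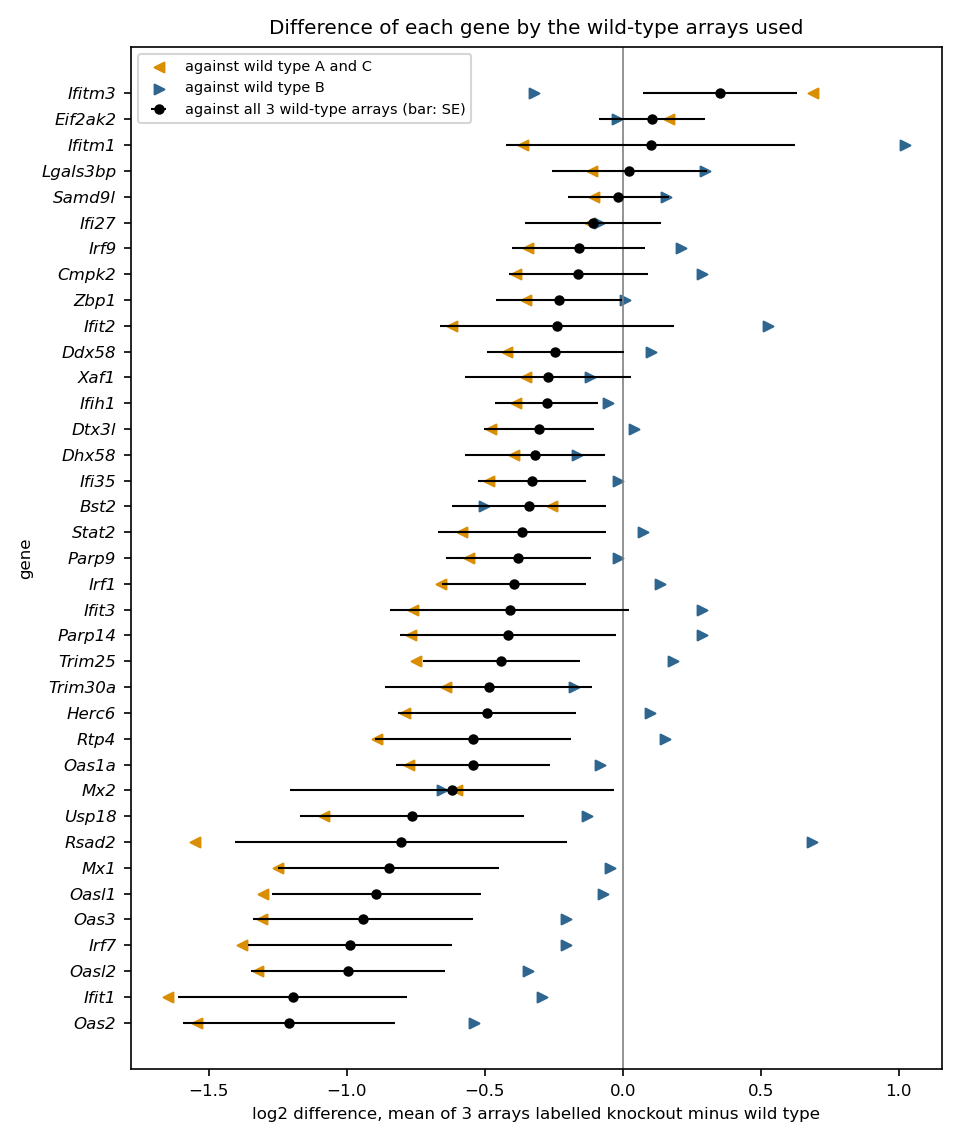
Log2 difference of each of the 37 genes (rows) between the mean of the 3 arrays labelled knockout and wild type. Black points with SE bars use all 3 wild-type arrays, left-pointing triangles wild type A and C, and right-pointing triangles wild type B. Against wild type B, 29 of the 37 genes lie within 0.3 of 0.

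Measures of array quality moved with some of this pattern. The Gapdh control signal at the 3' end over that at the 5' end, a ratio that grows with RNA degradation, was 1.10, 0.989 and 1.45 for the wild-type letters A, B and C and 0.907, 0.954 and 0.859 for those labelled knockout. Brightness, as the trimmed mean over deposited signals, was 117 to 188 in wild type and 192 to 222 in the arrays labelled knockout, with wild type B nearest to the latter. The part of these measures in the differences between the groups was not tested. Wild type C had the highest ratio and the highest mean of the 37 genes in its group. The array labelled knockout C had the lowest ratio and the highest mean of the 37 genes in its group. With the Gapdh ratio as a covariate 23 of the 37 genes were lower, with a median of -0.09, and limma called 0 of the 37. Every wild-type Gapdh ratio lay above every Gapdh ratio of the arrays labelled knockout, so this fit cannot tell the ratio and the label apart. The same ratio of the Actb control was 2.40, 2.24 and 3.25 in wild type and 2.05, 2.27 and 1.82 in the arrays labelled knockout. For Actb the groups overlapped, with wild type B below the array labelled knockout B. Without any scaling of the deposited signals, 13 of the 37 were lower and their median was 0.094, while the median of all genes moved to 0.43. The genes thus stood below the median of all genes by 0.34 there and by 0.40 after quantile normalization. Mapk14 read higher in the arrays labelled knockout (9.72, 9.91 and 9.73) than in wild type (9.31, 9.44 and 9.37), which goes against the label, and whether its probe set lies in the deleted part was not tested.

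**Figure D3:**
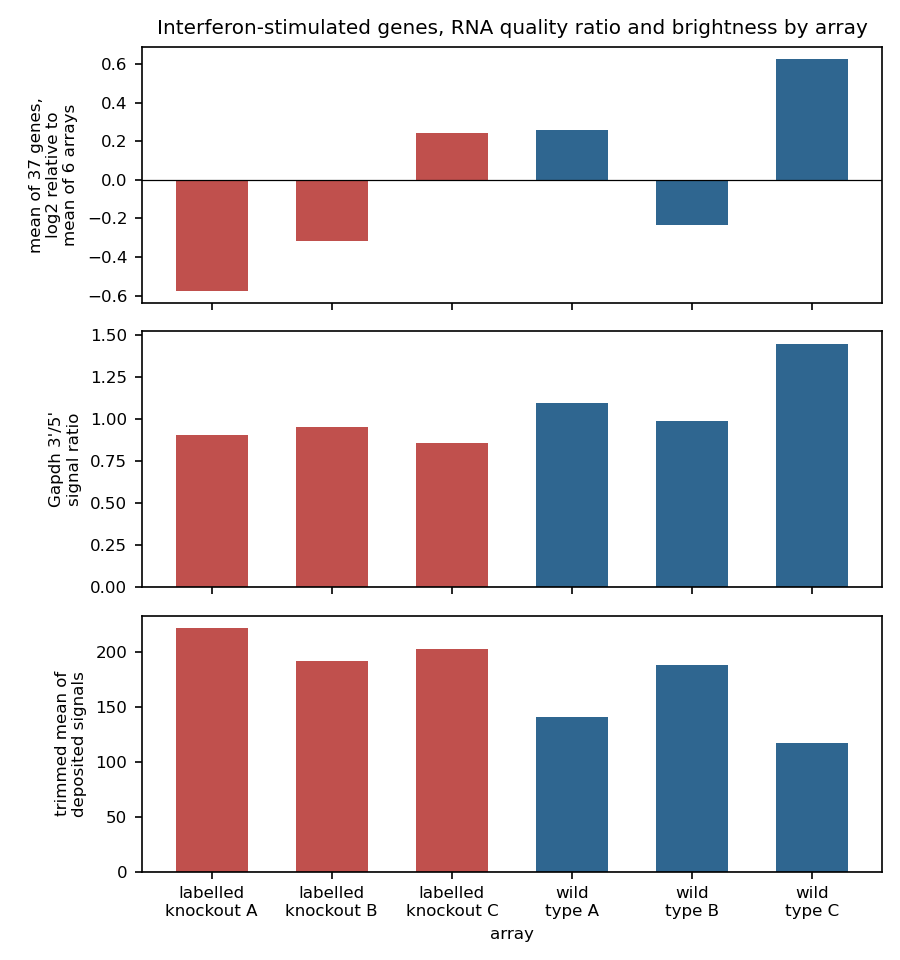
Mean of the 37 genes relative to the mean of the 6 arrays (top, log2), Gapdh 3' to 5' signal ratio (middle) and trimmed mean of the deposited signals (bottom) for each array, red for labelled knockout and blue for wild type. Wild type C has the highest gene mean (0.63) and Gapdh ratio (1.45), and the arrays labelled knockout span -0.58 to 0.24 in gene mean at ratios of 0.859 to 0.954.

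The 4 RNA sensors were all on the lower side, with a median difference of -0.26. Ddx58 encodes RIG-I and Ifih1 encodes MDA5, which detect viral RNA in the cytoplasm, Dhx58 encodes their regulator LGP2, and the product of Zbp1 binds nucleic acid in the Z form. Ifih1 read 10.67, 10.60 and 11.05 in the arrays labelled knockout and 11.36, 10.83 and 10.96 in wild type. Here wild type A was the highest array, unlike in most of the list, and the groups overlapped. The 4 differences ran from -0.32 (Dhx58) to -0.23 (Zbp1), with Ddx58 at -0.24 and Ifih1 at -0.28. Against wild type B, Zbp1 stood at 0.01 and Ddx58 at 0.10.

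Among the transcription factors Irf7, the factor that amplifies interferon production, differed most. Its levels were 7.98, 8.28 and 8.71 in the arrays labelled knockout and 9.36, 8.53 and 10.05 in wild type. Wild type A and C lay above all 3 arrays labelled knockout, and wild type B between the arrays labelled knockout B and C. The difference was -0.99 (SE 0.37, limma adjusted p = 0.902), a 1.98-fold lower mean. Stat2 and Irf9, whose products bind the response element in 1 complex, stood at -0.36 and -0.16, and Irf1, an early-induced factor, at -0.39. In these 3 genes wild type C was the highest array and the array labelled knockout A the lowest, and against wild type B all 3 were above 0 (0.07, 0.21 and 0.13).

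The proteins that act on RNA and translation held the largest differences. Oas2 encodes an oligoadenylate synthetase, which makes the messenger that activates the nuclease RNase L. It read 6.77, 7.07 and 7.97 in the arrays labelled knockout and 8.64, 7.81 and 8.995 in wild type, a difference of -1.21 (SE 0.38, limma adjusted p = 0.902). Only the array labelled knockout C reached above wild type B. Ifit1, whose product binds foreign 5' ends of RNA, read 8.78, 9.06 and 9.84 against 10.68, 9.52 and 11.07, a difference of -1.20 (SE 0.41, limma adjusted p = 0.902). Again wild type B lay below the array labelled knockout C and the other wild-type arrays above it.

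The other synthetase genes were lower through the same arrays. Oas3 read 5.92, 6.63 and 6.96 in the arrays labelled knockout and 7.49, 6.71 and 8.14 in wild type, a difference of -0.94 (SE 0.40). Oas1a read 10.95, 11.15 and 11.86 against 11.97, 11.40 and 12.22, a difference of -0.54 (SE 0.28). In both genes the groups overlapped because the array labelled knockout C lay above wild type B. Oasl2, which encodes a synthetase-like protein, read 8.38, 8.86 and 9.45 against 10.04, 9.24 and 10.40, a difference of -0.995 (SE 0.351). Its neighbour Oasl1 read 7.74, 8.08 and 8.48 against 9.08, 8.17 and 9.73, a difference of -0.89 (SE 0.38), and for each of these 4 genes the limma adjusted p was 0.902.

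Within the IFIT family the differences ranged widely. Ifit2 and Ifit3, whose products bind RNA in complexes with other IFIT proteins, stood at -0.24 and -0.41, against -1.20 for Ifit1. Ifit2 read 8.60, 9.51 and 10.05 in the arrays labelled knockout and 9.87, 8.87 and 10.15 in wild type, so that wild type B was lower than the arrays labelled knockout B and C. Whether Ifit1 differed more than Ifit2 was not tested. Eif2ak2, which encodes the kinase PKR that stops translation on double-stranded RNA, was the only gene of this role on the higher side, at 0.11 (SE 0.19, limma adjusted p = 0.925). It read 8.21, 8.74 and 8.38 against 8.23, 8.46 and 8.32, with its other probe sets at 0.11 and 0.04.

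**Figure D4:**
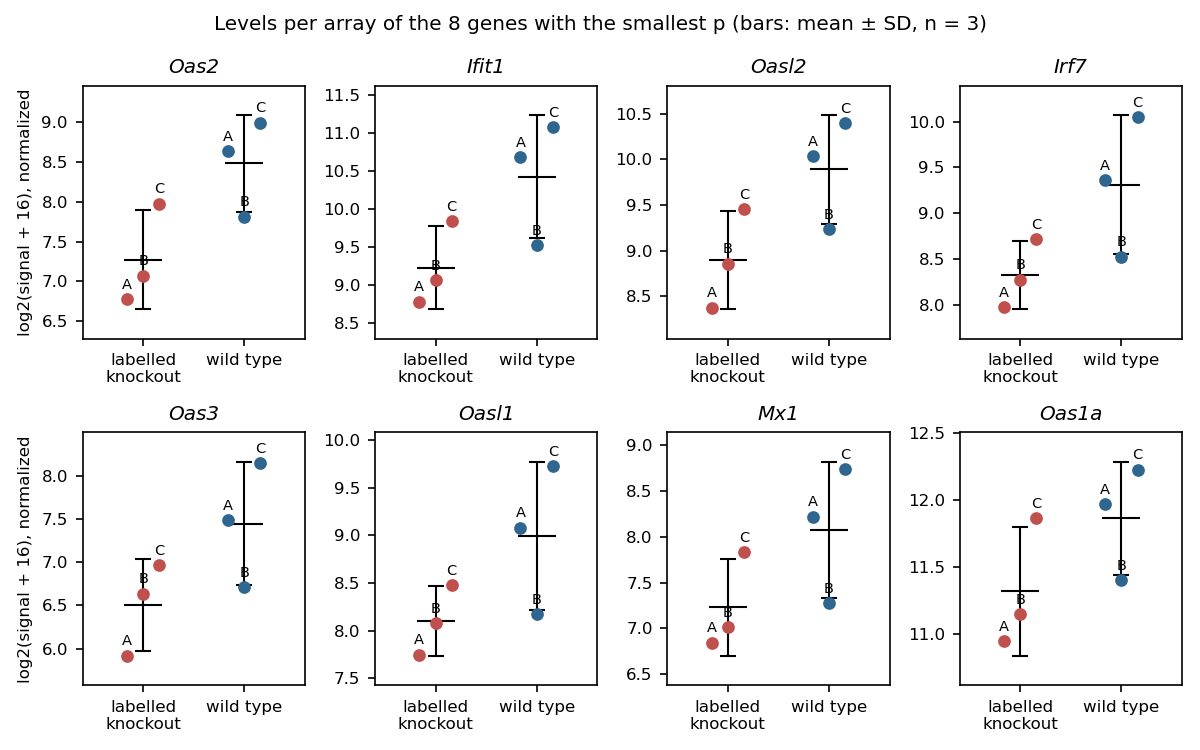
Levels of the 8 listed genes with the smallest p, as log2(signal + 16) after normalization, with 1 point per array (letters A, B and C) and bars for the mean and SD of 3 arrays. In every panel the array labelled knockout C lies above wild type B, so the groups overlap.

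Proteins that act on viral particles and membranes were the most mixed role, with 5 lower and 2 higher. Mx1 encodes a dynamin-like GTPase that traps viral components, and C57BL/6 mice carry a defective copy of it. It read 6.84, 7.01 and 7.83 in the arrays labelled knockout and 8.22, 7.27 and 8.74 in wild type, a difference of -0.85 (SE 0.40, limma adjusted p = 0.902). The dim paralog Mx2 read 4.57, 4.31 and 6.11 against 4.60, 5.65 and 6.59, with the array labelled knockout C and wild type B and C above the rest. Its difference was -0.62.

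Rsad2, which encodes viperin, a radical enzyme that makes a chain-terminating nucleotide, had the widest range of all. It read 8.88, 9.65 and 10.003 in the arrays labelled knockout and 10.71, 8.82 and 11.41 in wild type. Wild type B was its lowest array and wild type C its highest, so the difference of -0.80 became 0.69 with wild type B alone as control. Its neighbour Cmpk2, a nucleotide kinase gene, stood at -0.16 and had wild type B as its lowest array too. Bst2, which encodes the virion-tethering protein tetherin, stood at -0.34 and was highest in the array labelled knockout C.

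The neighbouring membrane genes Ifitm1 and Ifitm3, whose products hinder fusion of viruses with the cell, were both on the higher side. Ifitm3 read 10.25, 10.23 and 10.32 in the arrays labelled knockout and 9.76, 10.58 and 9.39 in wild type. Wild type A and C were its lowest arrays and wild type B its highest, the reverse of the common pattern. Its difference was 0.35 (SE 0.28, limma adjusted p = 0.902). Ifitm1 read 6.20, 7.78 and 6.36 against 6.81, 5.76 and 7.47, a difference of 0.10 (SE 0.52, limma adjusted p = 0.976). A single array, labelled knockout B, held its highest value, and without it the difference was -0.40.

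Enzymes that attach or remove ISG15, ubiquitin or ADP-ribose were lower for all 7 tested genes, from -0.76 to -0.30, where 46.8% of all genes were lower. Usp18 encodes the protease that removes ISG15 and blocks the receptor. It read 8.16, 8.19 and 9.49 in the arrays labelled knockout and 9.59, 8.74 and 9.80 in wild type, a difference of -0.76 (SE 0.41, limma adjusted p = 0.902). The array labelled knockout C lay next to wild type A and above wild type B. The ISG15 ligase gene Herc6 stood at -0.49, the ubiquitin ligase genes Trim25 and Trim30a at -0.44 and -0.49, and the adjacent genes Parp14, Dtx3l and Parp9, a ubiquitin ligase gene between ADP-ribosyltransferase genes, at -0.41, -0.30 and -0.38. Trim25 read 11.09, 11.38 and 11.76 against 11.99, 11.23 and 12.33, where wild type B lay between the arrays labelled knockout A and B. Of these 7 genes, 4 (Herc6, Trim25, Dtx3l and Parp14) were above 0 against wild type B.

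The 6 remaining induced genes ranged from -0.54 to 0.02. Ifi35, whose product forms a complex with another interferon-induced protein, read 10.90, 10.85 and 11.29 in the arrays labelled knockout and 11.33, 11.03 and 11.67 in wild type, a difference of -0.33 (SE 0.20, limma adjusted p = 0.902). Rtp4, a chaperone gene for membrane receptors, stood at -0.54 and at 0.15 against wild type B. Xaf1, linked to cell death, stood at -0.27, Ifi27 at -0.11 and Samd9l, which restrains translation, at -0.02. Lgals3bp, which encodes a secreted galectin-binding protein, stood at 0.02 (SE 0.28, limma adjusted p = 0.988), with levels of 9.61, 9.34 and 10.31 against 9.60, 9.46 and 10.13. For Xaf1, Ifi27, Samd9l and Lgals3bp the array labelled knockout C was the highest of all 6.

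Where a gene had several probe sets they mostly pointed the same way. For 16 of the 37 genes there were 24 other probe sets, and 19 of these had the sign of the brightest. Zbp1 stood at -0.23 on its brightest probe set and at -0.76 on the other, and Trim25 at -0.44 on the brightest and -0.97 on the dimmest. Cmpk2 stood at -0.16 and 0.28, so that its mean over probe sets was on the higher side. The brightest probe sets of Trim25 and Ifi35 carry a suffix that marks possible cross-hybridisation. Outside the list, so do those read here for Mavs, Ticam1, Irf2, Irf3, Ptpn6 and Prss2.

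As a description of how closely the genes moved together, each was set against the mean of the other 36 over the 6 arrays. Pearson's r had a median of 0.94 and was 0.8 or more for 27 of the 37, where 11.4% of the other genes reached that value against the mean of the 37. These 6 points share arrays, scaling and RNA quality, so no p is given. Oas1a had the highest value, 0.99. Ifitm3 (-0.75) and Eif2ak2 (-0.26) had values below 0, and Ifitm1 stood at 0.30.

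Outside the list, the 10 genes most like the mean of the 37 had r of 0.990 to 0.997. They were Dhrs11, Trim5, A930013F10Rik, Osmr, Tomm34, Ogfrl1, Mep1b, Cyp2d34, Kin and Entpd8. Osmr, which encodes the oncostatin M receptor, read 5.63, 6.14 and 6.92 in the arrays labelled knockout and 7.24, 6.30 and 7.82 in wild type. Mep1b, a brush border protease gene, read 9.93, 10.23 and 11.57 against 11.46, 10.67 and 12.10. Both had the same order of arrays as the mean of the listed genes, except that for Mep1b the array labelled knockout C lay above wild type A.

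Of the pathway upstream, little could be read from the interferon genes themselves. Of 21 listed ligand genes 10 had a probe set of their own, and 9 of these lay below the signal filter, Ifnb1 and Ifng among them. Only Ifna1 was tested, close to the bottom of the scale at 4.73 to 5.51 in the arrays labelled knockout and 5.13 to 5.75 in wild type, on a probe set open to cross-hybridisation.

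The receptors and their kinases gave small differences. Of 9 tested genes 7 were lower and 2 higher, with a median of -0.07, and limma called 0, with 0 at an unadjusted p under 0.05. The receptor chains Ifnar1 (7.22, 7.26 and 7.37 against 7.18, 7.26 and 7.48) and Ifnar2 (6.31, 6.32 and 6.21 against 6.34, 6.53 and 5.85) overlapped between the groups. So did the kinases Jak1 (8.73 to 9.29 against 8.69 to 9.49) and Tyk2 (7.91 to 8.30 against 7.19 to 8.65) and the interferon gamma receptor Ifngr1 (10.27 to 10.75 against 10.22 to 10.97). The type III receptor gene Ifnlr1 read 6.93, 7.35 and 7.30 in the arrays labelled knockout and 7.87, 7.14 and 7.93 in wild type, a difference of -0.45 (SE 0.26) that was 0.059 with wild type B alone as control. Jak2 stood at -0.32 (SE 0.18) and at -0.050 with the mean of its probe sets.

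Among 10 tested sensors and adaptors upstream of interferon 6 were lower and 4 higher, and 1 had an unadjusted p under 0.05. This was Mavs, the mitochondrial adaptor through which RIG-I and MDA5 signal. It read 8.93, 8.97 and 9.001 in the arrays labelled knockout and 8.09, 8.52 and 8.40 in wild type, a difference of 0.63 (SE 0.17, limma adjusted p = 0.902). The groups did not overlap, with the arrays labelled knockout on top as for 4.68% of all genes. The brightest probe set of Mavs carries a suffix that marks possible cross-hybridisation, and with the mean of its probe sets the difference was 0.32. Ticam1, the adaptor of the double-stranded RNA receptor TLR3, stood at -0.45 (SE 0.21). Of 5 further transcription factors 3 were lower and 2 higher, with 0 at an unadjusted p under 0.05. Irf3 read 8.62 to 8.93 against 8.82 to 9.01 and Irf8 9.17 to 9.59 against 8.82 to 9.64, which overlapped. Stat3 (8.73 to 9.22 against 9.06 to 9.50) and Irf2 (8.61 to 8.87 against 8.69 to 9.47) overlapped as well.

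All 8 tested inhibitors of the response were lower, with a median of -0.26, where 46.8% of all genes were lower. Of these inhibitors limma called 0, with 0 at an unadjusted p under 0.05. Socs1, the suppressor of JAK kinases, read 5.05, 5.06 and 5.11 in the arrays labelled knockout and 5.63, 5.39 and 5.30 in wild type. These dim values did not overlap, as for 4.38% of all genes on that side (difference -0.37, SE 0.19, limma adjusted p = 0.902). Ptpn6, which encodes the phosphatase SHP-1, stood at -0.46 (SE 0.28). It stood at -0.21 with the mean of its probe sets and at 0.24 with the Gapdh ratio as a covariate. Another phosphatase gene, Ptpn2, read 10.20 to 10.40 against 10.33 to 10.67. Of 12 tested genes driven mainly by interferon gamma 11 were lower, with a median of -0.29, and 2 had an unadjusted p under 0.05, where 46.8% of all genes were lower and 2.2% had such a p on that side. These were Ido1, a tryptophan-degrading enzyme gene, at -1.49 (SE 0.39), and Cd274, which encodes the checkpoint ligand PD-L1, at -1.51 (SE 0.42), both with a limma adjusted p of 0.902 and no overlap between the groups, as for 4.38% of all genes on that side. Without wild type B limma called Cd274 (difference -2.04, adjusted p = 0.0438, over all alternatives 0.0438 to 0.9997), and with wild type B alone as control it stood at -0.45. The chemokine gene Cxcl10 read 5.75 to 6.32 against 5.75 to 6.71.

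The labelled cell type was checked against markers. All 8 epithelial markers were tested, their mean level was 12.08 to 12.16 in the arrays labelled knockout and 12.10 to 12.21 in wild type, and their median difference was -0.001. Among them Krt18 was lower without overlap between the groups (-0.25, SE 0.12, limma adjusted p = 0.902), as for 4.38% of all genes. Sums of the markers of other cells varied between the arrays. The summed signal of 7 tested T cell markers of 11 listed was 312 to 629 in the arrays labelled knockout and 349 to 1386 in wild type, with Cd2 and Cd4 below the filter. That of 6 tested macrophage markers of 8 listed was 202 to 469 and 199 to 523, with C1qc below the filter, and that of 3 tested dendritic cell markers of 6 listed was 66.5 to 81.7 and 50.8 to 203, with Zbtb46 and Xcr1 below the filter. For T cells and macrophages the array labelled knockout A and wild type B had the lowest sums of their groups, as for the antiviral genes. The array labelled knockout B had the highest of both sums in its group, and its antiviral genes averaged -0.32. All 7 T cell markers were lower in the arrays labelled knockout, with a median of -0.49, where 46.8% of all genes were lower. Cd3e, a chain of the T cell receptor complex, did not overlap between the groups (-1.01, SE 0.36, limma adjusted p = 0.902), as for 4.38% of all genes on that side. The 3 tested natural killer cell markers of 5 listed were lower too (median -0.25), with sums of 61.4 to 129 against 88.8 to 226, and the 3 tested B cell markers of 6 listed had sums of 141 to 270 against 115 to 259. For both lists the array labelled knockout A and wild type B were again the lowest of their groups. So they were for the 4 tested fibroblast markers of 5 listed, with sums of 342.6 to 2046 against 966.5 to 1489. The 3 tested neutrophil markers of 6 listed were higher in the arrays labelled knockout (median 0.51), where 46.8% of all genes were lower. S100a8 read 6.25, 8.25 and 5.42 in the arrays labelled knockout and 6.29, 6.25 and 6.51 in wild type, so its higher mean came from array B alone. The neutrophil sums were 111, 489 and 46.9 in arrays A, B and C labelled knockout and 92.2, 82.0 and 127 in wild type. The array labelled knockout C and wild type B were the lowest of their groups. Of 5 listed smooth muscle markers 3 were tested, with sums of 244 to 492 against 138 to 270, the array labelled knockout A being the highest. Tagln did not overlap between the groups (1.04, SE 0.41, limma adjusted p = 0.902), as for 4.68% of all genes on the higher side. The part of these cells in the differences was not tested, and in bulk mucosa fewer cells of a type and less RNA per cell cannot be told apart.

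**Figure D5:**
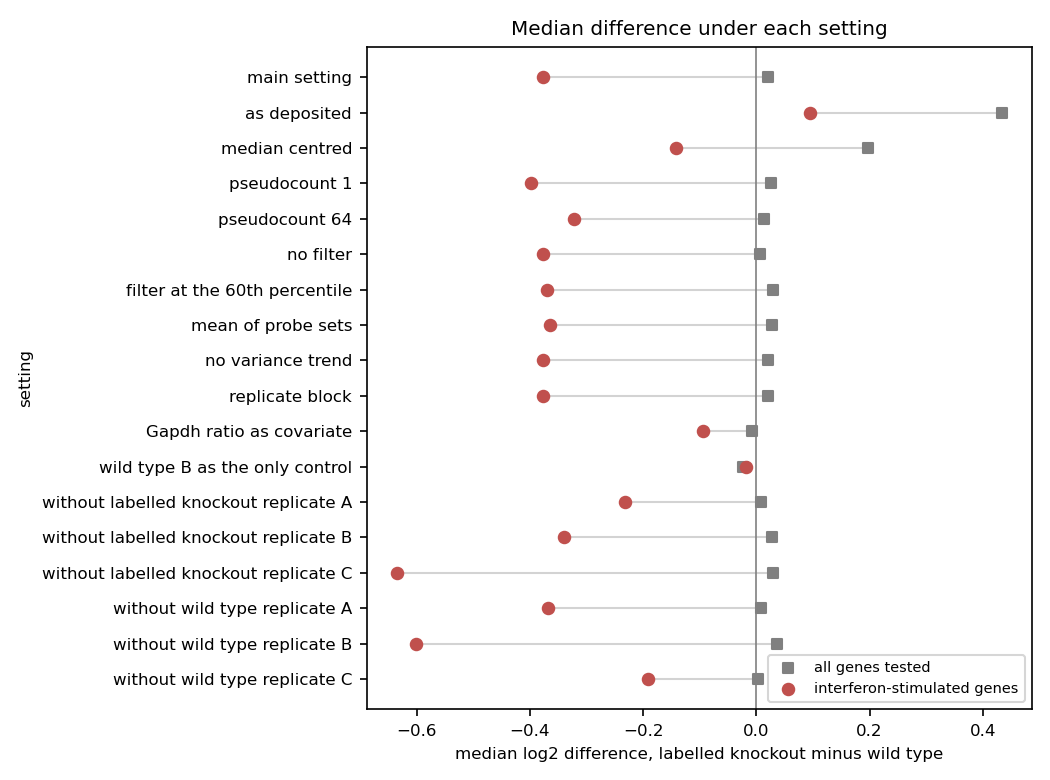
Median log2 difference (labelled knockout minus wild type) of the listed interferon-stimulated genes (red) and of all genes tested (grey) under the main setting and each alternative. The median of the listed genes lies below that of all genes in all settings except with wild type B alone as control, where they are -0.018 and -0.023.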

How the data were processed

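Total RNA of 6 colonic mucosa samples was labelled with a 3' in vitro transcription kit and hybridised to Affymetrix arrays, per the labels' protocols. The authors deposited linear intensities of 45101 probe sets, which MAS5 made per the submitters' processing notes. The MAS5 version and scaling were not given in the sources used here. Array means differed. Intensities were taken as log2(signal + 16), quantile normalized, and those whose mean lay below the 40th percentile (a signal of about 18.4) were dropped. No control probe set (64 in all) entered a test. Of the rest, 34945 probe sets had 1 platform symbol, 932 several and 9160 none here, and only the first kind was named. The brightest probe set of each gene gave 12437 genes, compared in limma 3.58.1 (R 4.3.3) by lmFit and eBayes, the prior variance following a trend, and Benjamini-Hochberg adjustment at 0.05. The number of arrays limits the precision. The fit was run on simulated data with independent noise for each gene and equal spread in all arrays. Such data hold no effects shared by the genes of an array, so that run does not bear on them.

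The members, lists and tests were chosen with earlier results of these data known. All 40 members are accounted for, with full statistics for the 10 of smallest p and those above 0; of the pathway lists, 10 genes and up to 2 more per list with the smallest p were named. Ifih1, Ifit2, Mx2, Rsad2, Bst2, Trim25, Zbp1, Cmpk2, Osmr, Mep1b, Krt18, Cd3e, Tagln and the pancreas genes were singled out after their values were seen. Alternatives were other scalings, pseudocounts of 1 and 64, no filter or the 60th percentile, the mean of probe sets, no variance trend, the replicate letter as a block, the Gapdh ratio as a covariate, wild type B alone as control, and each array left out in turn.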

Additional observations from a re-analysis of the deposited data

How the results depend on the processing

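In the 17 alternatives limma called 0 of the 37 genes, 10 kept their direction in all of them, and 73 of 628 single values turned. On the signals as deposited the median of the 37 turned to 0.094, with Ddx58 0.25, Ifih1 0.20, Dhx58 0.094, Zbp1 0.29, Stat2 0.036, Irf9 0.36, Irf1 0.063, Ifit2 0.29, Ifit3 0.082, Cmpk2 0.36, Bst2 0.15, Herc6 0.0087, Trim30a 0.016, Parp9 0.13, Dtx3l 0.21, Parp14 0.11, Ifi27 0.42, Ifi35 0.13, Samd9l 0.46, Xaf1 0.25, Ifnlr1 0.0091, Jak2 0.20 and Ptpn6 0.046. Centred on array medians the turned values were Ddx58 0.017, Zbp1 0.059, Irf9 0.12, Ifit2 0.052, Cmpk2 0.12, Ifi27 0.18, Samd9l 0.22 and Xaf1 0.017. With the Gapdh ratio as covariate the turned values were Ddx58 0.25, Stat2 0.13, Irf9 0.15, Irf1 0.084, Ifit2 0.34, Ifit3 0.34, Rsad2 0.51, Cmpk2 0.33, Ifitm3 -0.30, Trim25 0.091, Parp14 0.25, Samd9l 0.030 and Ptpn6 0.24. With wild type B alone as control they were Ddx58 0.10, Zbp1 0.0067, Stat2 0.073, Irf9 0.21, Irf1 0.13, Ifit2 0.53, Ifit3 0.29, Eif2ak2 -0.019, Rsad2 0.69, Cmpk2 0.29, Ifitm3 -0.32, Herc6 0.099, Trim25 0.18, Dtx3l 0.042, Parp14 0.29, Rtp4 0.15, Samd9l 0.16, Ifnlr1 0.059, Jak2 0.0044 and Ptpn6 0.032. With the mean of probe sets Cmpk2 turned to 0.060. With 1 array left out in turn the ranges of the genes that turned were Ifit2 -0.62 to 0.16, Ifi27 -0.37 to 0.11, Samd9l -0.19 to 0.12, Eif2ak2 -0.043 to 0.22, Ifitm1 -0.40 to 0.50, Lgals3bp -0.26 to 0.23, Irf9 -0.34 to 0.0082, Cmpk2 -0.39 to 0.073. The cause was not tested. Over all genes limma called 0, and 0 to 6 with 1 array left out. It called 6 without wild type B (Cd274 among them, so that pathway calls ranged from 0 to 1) and 1 (Mt1) on the signals as deposited, centred on medians, with a pseudocount of 64, with wild type B alone as control or without wild type C. With the replicate block it called 3 genes, none of them listed, and 11 of the 37 genes had an unadjusted p under 0.05, against 6 without the block, while the share of all genes with such a p was 5.56% against 3.94%. Same-lettered arrays correlated in their deviations at -0.04 (A), -0.11 (B) and 0.45 (C), which does not settle whether the letters pair the samples. With wild type B alone as control the spread came from the arrays labelled knockout alone.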
